A study of Mus musculus with 4 samples.

Results

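The proteasome is the protease complex that degrades ubiquitin-tagged proteins in the cytosol and nucleus. Its core particle is a barrel of outer alpha rings, which gate entry, and inner beta rings, which hold the proteolytic sites. The regulatory particle that caps the barrel consists of a base, with a ring of ATPases that unfold the substrate, and a lid that removes ubiquitin. Dedicated chaperones assemble each part, and other activators and ubiquitin-removing enzymes bind the finished complex.

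The 41 genes described here are constitutively expressed proteasome subunits, assembly factors and associated enzymes, without others such as Sem1, placed in a neighbouring list. They were taken by gene symbol, by their known role in the complex, and each was read from the brightest of the probe sets that the platform annotation assigns to that gene alone. All 41 had such a probe set, among 12393 genes with one in the series, and all 41 passed the filter on dim probe sets. They were grouped as 7 alpha ring, 7 beta ring, 6 ATPase and 8 lid genes and 6 assembly factors. The other base subunits (3 genes) and the activators and deubiquitinases (4 genes), which fall outside those classes, were kept apart.

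Expression was measured in Py-4-1, a mouse hemangioendothelioma line; such tumours arise from endothelium. Of its 4 transfected clones, 2 are labelled pcDNA and described as control-transfected, and 2 are labelled pcDNA/Prox1 and described as stably expressing Prox1, the homeobox factor of lymphatic endothelium. Each clone was hybridised to its own 1-colour Affymetrix array. The spread within a group therefore holds clone, culture and array differences together, and with 2 clones a group no exact permutation test can give a p under 0.333. Values are MAS5 signal intensities, and they were tested as log2(intensity + 47), the added constant being the 25th percentile of the file's values.

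The targeted gene could not be checked against its label. Prox1 intensity was 52.1 and 60.5 for control clones 1 and 2, versus 62.4 and 44.3 under the Prox1 label (log2 change -0.047 ± 0.20, adjusted p = 0.963 in the fit without the filter), below the filter. On the control clone 1 array it exceeded that array's own highest Bacillus control probe set (45.3), and on the other arrays it did not. On every array it lay below 101, the highest intensity of the 27 Bacillus control probe sets on any array, so it was not clearly above background. Whether it lies in the transfected sequence is not given in the sources used here. The groups are therefore named by their labels, and every direction below rests on those labels. Of 11 endothelial markers, 9 exceeded that intensity on every array, among them Pecam1 and Cdh5, while Cldn5 and Flt1 did not. Summed endothelial marker intensity was 35924 and 46106 in the control clones and 47165 to 49823 in the Prox1-labelled clones, and its part in the results below was not tested. Of the markers of other cells, 2 of 5 leukocyte markers (Cd68 and Csf1r), 1 of 5 epithelial (Krt8) and 1 of 6 fibroblast and mural markers (Acta2) did so. The leukocyte marker Ptprc, the epithelial marker Epcam and the fibroblast markers Pdgfra and Dcn lay below that control level on every array, and no marker of any list passed the threshold. In this bulk RNA, fewer cells with a transcript and less RNA per cell cannot be told apart.

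No proteasome gene changed past the threshold between the groups. In limma's fit over all 11656 probe sets tested, 0 of 41 members had an adjusted p under 0.05, against 0.115% of the 6949 genes tested by their brightest probe set (0.0144% lower and 0.101% higher), and the smallest adjusted p of a member was 0.229. At an unadjusted p under 0.05 there were 2 members, Psmd5 and Psmd7, both lower, against 14.3% of genes (6.13% lower and 8.22% higher). The differences were small. The change exceeded 1.5-fold for 1 member, Psmd5, against 9.4% of genes. The log2 change, Prox1-labelled minus control, ran from -0.61 to 0.42, and for 39 of 41 members the 95% interval lay within a 2-fold change in either direction, as it did for 84.8% of genes. The exceptions were Psma7 and Psmd5, whose intervals reached -1.17 and -1.05. For 18 members the interval lay within a 1.5-fold change, so a change of that size was not bounded for the remainder.

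More members read lower than higher in the Prox1-labelled clones. The log2 change was below 0 for 29 of 41 members, against 49.1% of genes. After quantile normalization 25 members were below 0 (51.9% of genes), and after median centring 32 (54.8% of genes). The median log2 change over the members was -0.066, where the median of all genes was 0.0072. It was -0.035 after quantile normalization and -0.11 after median centring, where over all probe sets tested it was -0.0078 and -0.033. Both Prox1-labelled clones lay under both control clones for 13 members (23.2% of genes did so), and above both for 7 (23.2% of genes). The group difference exceeded the gap between the clones of either group for 10 members, 6 lower and 4 higher, against 33.4% of genes. This tilt depended on single clones. Without control clone 1 the median was -0.0055, with 21 members below 0 (53.6% of genes). Without Prox1-labelled clone 1 it was 0.036, with 20 below 0 (49.7% of genes). The tilt stayed without control clone 2, with 30 members below 0 (46.6% of genes), and without Prox1-labelled clone 2, with 32 (47.6% of genes).

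**Figure D1:**
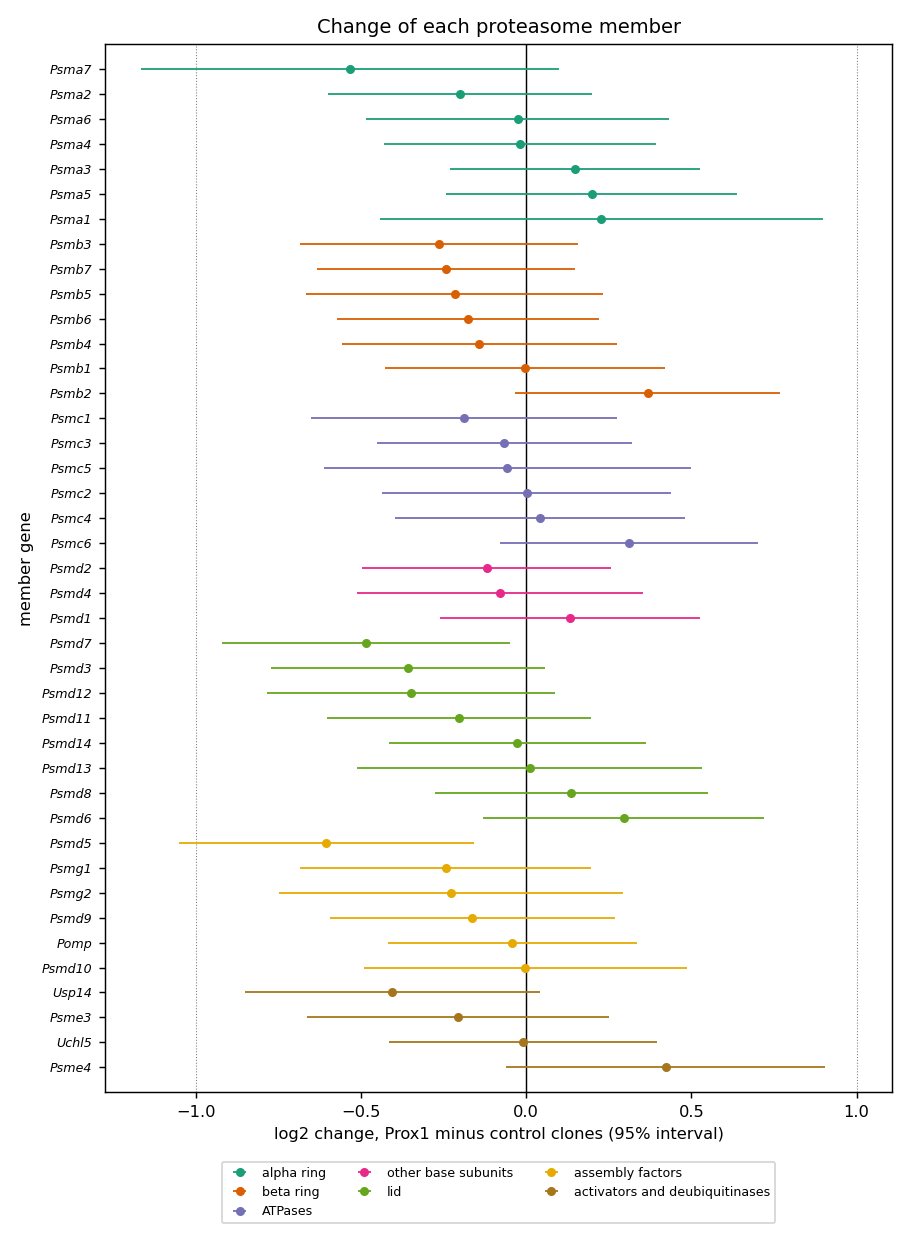
Log2 change of each of the 41 members, Prox1-labelled minus control clones (x axis), with its 95% interval from limma, ordered within class and coloured by class. Points lie between -0.61 and 0.42, and 2 intervals, those of Psmd5 and Psmd7, do not include 0.

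The alpha ring genes showed no shared direction. The class had a median log2 change of -0.020, which was 0.035 after quantile normalization, with 4 of 7 genes below 0. Psma7 read 4748 and 3677 in the controls versus 2107 and 3910.1 with the Prox1 label (log2 change -0.53 ± 0.28 (SE), adjusted p = 0.420). Prox1-labelled clone 1 stood apart from the others for this gene, and without it the change was -0.095. The other tested probe set of Psma7 gave -0.13, also with overlap. Psma1 read 2917 and 1434 in the controls versus 2249.7 and 2570.1 with the Prox1 label (0.23 ± 0.30, adjusted p = 0.785). Here the Prox1-labelled values lay between the control values, and without control clone 2 the change was -0.27. Psma3 was the 1 alpha gene with both Prox1-labelled values above the controls, at 5808 and 6473 against 5787 and 5291, and Psma2 the 1 with both below, at 3274 and 3719 against 4259 and 3789. Psma4 (-0.020), Psma5 (0.20) and Psma6 (-0.026) overlapped between the groups, and Psma4 and Psma6 turned positive after quantile normalization. The other tested probe set of Psma5 read lower without overlap (-0.27), and the mean over its probe sets was -0.012.

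In the beta rings 6 of 7 genes had a log2 change below 0 (5 of 7 after quantile normalization), with a class median of -0.18. The proteolytic subunits all read somewhat lower. Psmb5, which carries the chymotrypsin-like activity, read 2382 and 2980.0 in the controls versus 2069.9 and 2526 with the Prox1 label (-0.22 ± 0.20, adjusted p = 0.677), with overlapping groups. Psmb6, of the caspase-like activity, read 2376 and 2501 against 2063 and 2246 (-0.18 ± 0.18, adjusted p = 0.706). Psmb7, of the trypsin-like activity, read 13277 and 10521 against 9691 and 10266 (-0.24 ± 0.17, adjusted p = 0.566). For Psmb6 and Psmb7 both Prox1-labelled values lay under both control values, by less than 1.5-fold. Single clones moved these values: Psmb7 stood at -0.077 without control clone 1 and -0.41 without control clone 2, and Psmb5 at -0.058 without control clone 2 and -0.076 without Prox1-labelled clone 1.

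The structural beta subunits went in opposite directions. Psmb3 read 4834 and 3782 in the controls versus 3479.9 and 3622 with the Prox1 label (-0.27 ± 0.19, adjusted p = 0.561), without overlap, and stood at -0.090 without control clone 1. Psmb2 read 2189 and 1933 against 2663 and 2672 (0.37 ± 0.18, adjusted p = 0.382). Its Prox1-labelled clones were nearly equal and above both controls, so leaving out a clone could not change the direction (0.28 to 0.46). Psmb4 (-0.14) and Psmb1 (-0.0046) overlapped, and Psmb1 turned positive after quantile normalization.

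Among the 6 ATPases the median log2 change was -0.028 (0.016 after quantile normalization) and 5 had overlapping groups. Psmc6 was the exception. It read 2107 and 2094 in the controls versus 2624 and 2613 with the Prox1 label (0.31 ± 0.17, adjusted p = 0.445), so that the clones of each group were close together and the groups apart. The lowest change of the class was that of Psmc1, at 2357 and 1735 against 1847 and 1692 (-0.19 ± 0.20, adjusted p = 0.733), which was 0.027 without control clone 1. Psmc2, Psmc3, Psmc4 and Psmc5 had log2 changes between -0.066 and 0.042, and the sign of each changed with a scaling or on leaving out a clone. The dimmer tested probe set of Psmc4 gave 0.69, higher without overlap. Control clone 1 read highest of the 4 clones for Psmc1, Psmc2, Psmc3, Psmc4 and Psmc5.

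The other base subunits differed little. Psmd2, a scaffold that binds substrate-delivering proteins, read 4900.5 and 4796 in the controls versus 4267 and 4662 with the Prox1 label (-0.12 ± 0.17, adjusted p = 0.799). Psmd1, the second large scaffold, read 2189.6 and 2259.8 against 2364 and 2527 (0.13 ± 0.17, adjusted p = 0.785). Neither gene's groups overlapped, but the distances were small. The ubiquitin receptor gene Psmd4 overlapped (-0.080).

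Lid genes were split in direction. For 4 of 8 lid genes both Prox1-labelled values lay under both control values, and for 2 above, where 23.2% of all genes did each. The class median was -0.12 (-0.081 after quantile normalization and -0.16 after median centring). Psmd7, the partner of the deubiquitinase Psmd14, read 1151 and 1280.3 in the controls versus 785 and 928 with the Prox1 label (-0.49 ± 0.19, adjusted p = 0.295). Leaving out a clone, which cannot reverse groups that do not overlap, gave -0.60 to -0.37. Psmd3, a scaffold subunit, read 2570.0 and 2819 against 1923 and 2270.0 (-0.36 ± 0.18, adjusted p = 0.411). Psmd12, another scaffold subunit, read 4679 and 3634 against 3028 and 3444 (-0.35 ± 0.19, adjusted p = 0.444), and Psmd11, which braces the lid against the core particle, was also lower without overlap (-0.20). In contrast Psmd6 read 2074 and 2599 in the controls versus 2932 and 2788 with the Prox1 label (0.29 ± 0.19, adjusted p = 0.518). On leaving out a clone Psmd6 ranged from 0.14 to 0.45 and Psmd12 from -0.53 to -0.17. Psmd8 lay above the controls by a narrow margin (2344 and 1957 against 2363 and 2355). The catalytic lid subunit Psmd14 (-0.027) and Psmd13 (0.011) overlapped and changed sign after quantile normalization.

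All 6 assembly factors had a log2 change below 0 (5 of 6 after quantile normalization), with a class median of -0.20. Psmd5, a chaperone of the base, showed the lowest change of the 41 members. It read 2873 and 2177 in the controls versus 1605 and 1652 with the Prox1 label (-0.61 ± 0.20, 95% interval -1.05 to -0.16, adjusted p = 0.229). Its Prox1-labelled clones were close to each other and below both controls. The change was -0.41 without control clone 1 and -0.80 without control clone 2, and in the last fit it passed the threshold (adjusted p = 0.0211), as 1150 of 11656 probe sets then did. The alpha ring chaperone gene Psmg1 read 1224 and 1487 against 1064 and 1205 (-0.24), and the base chaperone gene Psmd9 read 771 and 728 against 619 and 711 (-0.16), both without overlap. Psmd10, a further base chaperone gene (-0.0023), the beta ring maturation factor Pomp (-0.042) and Psmg2 (-0.23), the partner of Psmg1, overlapped between the groups, and Pomp turned positive after quantile normalization.

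Of the activators, Psme4, which opens the core particle without ATP, read 904 and 708 in the controls versus 1227 and 964 with the Prox1 label (0.42 ± 0.21, adjusted p = 0.404). The nuclear activator gene Psme3 had a change of -0.21 with overlap. Usp14, a ubiquitin-removing enzyme that binds the base, read 1114 and 1285 against 982 and 810.5 (-0.41 ± 0.20, adjusted p = 0.386). Uchl5, the other deubiquitinase of the base, differed by -0.0088. Neither gene passed the threshold. The mean over probe sets was 0.070 for Psme4, whose probe sets differ in sign, and -0.27 for Usp14.

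**Figure D2:**
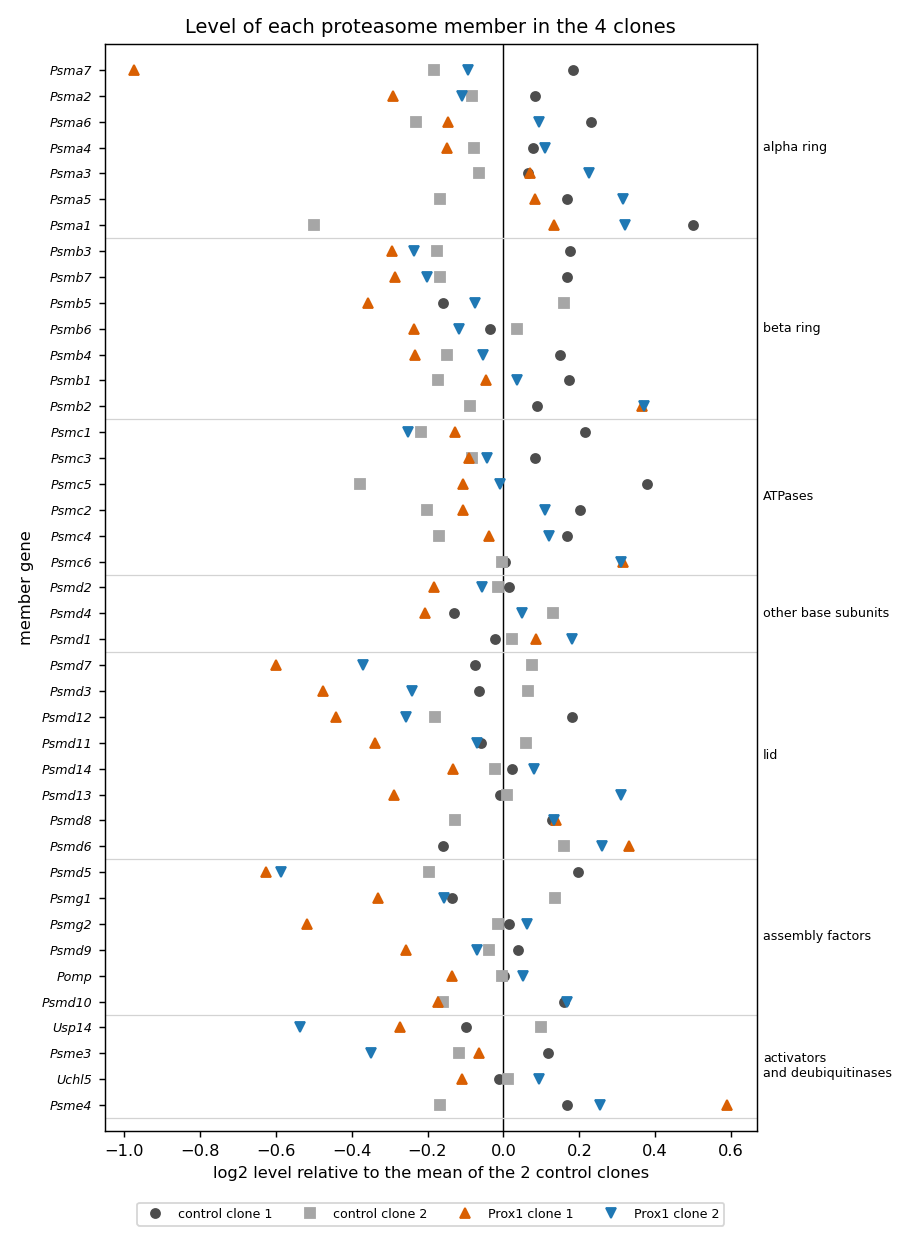
Log2 level of each member in each of the 4 clones, relative to the mean of the 2 control clones (x axis), ordered as in the plot of changes, with classes marked at the right. Psmc6 and Psmb2 show Prox1-labelled clones together above both controls and Psmd5 shows them together below, while in the alpha ring Prox1-labelled clone 2 lies to the right of Prox1-labelled clone 1 for all 7 genes.

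Clones of the same group also differed from each other. All 14 core particle genes read higher in Prox1-labelled clone 2 than in Prox1-labelled clone 1 (13 of 14 after quantile normalization and 14 after median centring), by a median of 0.18 on the log2 scale. Over all genes 46.8% did so. In the control group 12 of 14 read lower in clone 2 than in clone 1 (11 after quantile normalization and 13 after median centring), by a median of -0.32 (-0.16 after quantile normalization and -0.41 after median centring), against 43.2% of genes. The 6 ATPase genes were all lower in control clone 2 as well (5 after quantile normalization), with a median of -0.37, while the 8 lid genes had a median of 0.069 and 3 lower. Over the 41 members the median size of the log2 difference was 0.25 between the control clones, 0.19 between the Prox1-labelled clones and 0.19 between the groups. The group value compares means of 2 clones, which vary less than single clones, so these sizes are not on a common scale. Set against control clone 1 alone, the median of the members' Prox1-labelled mean was -0.15, and against control clone 2 alone it was -0.0055. For the alpha ring these were -0.26 and 0.20.

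**Figure D3:**
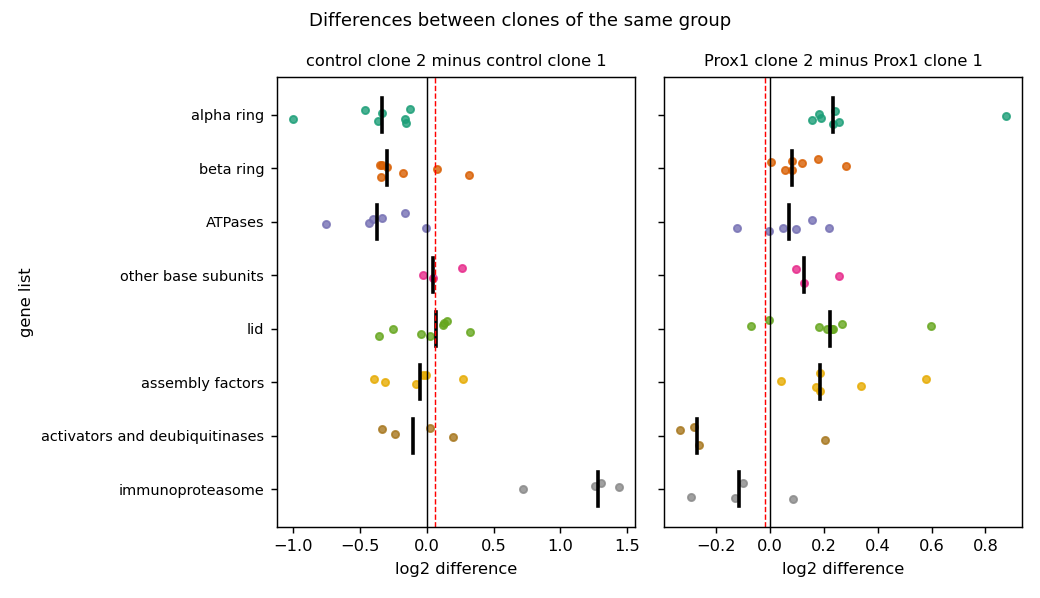
Log2 difference between the control clones (left) and between the Prox1-labelled clones (right) for each gene, by class, with the 4 measured immunoproteasome genes for comparison. Black bars are class medians and the dashed red line is the median of all genes tested. The alpha ring has medians of -0.34 on the left and 0.23 on the right, and the immunoproteasome 1.28 and -0.12.

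Immunoproteasome genes ran the other way between the control clones. Psmb8, Psmb9 and Psmb10 encode the interferon-induced subunits that replace Psmb5, Psmb6 and Psmb7, and Psme1 encodes part of the interferon-induced activator. Psmb8 read 387 and 1130.5 in the controls versus 845 and 899 with the Prox1 label. Psmb9 read 151 and 443 against 401 and 371, and Psmb10 read 308 and 539 against 446 and 356. For each of the 3 the Prox1-labelled values lay between the control values, and Psme1 did the same. The median gap between the control clones was 1.28 over the 4 genes. Against the controls as a group, Psmb8 gave 0.36 ± 0.39 (adjusted p = 0.730), Psmb9 0.47 ± 0.37 (adjusted p = 0.606) and Psmb10 -0.033 ± 0.27 (adjusted p = 0.970). Leaving out control clone 1 gave -0.36 for Psmb8 and -0.18 for Psmb9. Leaving out control clone 2, so that control clone 1 alone stood for the controls, gave 1.08 and 1.13.

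Several members were measured by more than 1 probe set. The 41 genes had 78 probe sets, of which 62 were tested, and 0 of these passed the threshold, against 0.103% of all probe sets tested (smallest adjusted p = 0.165). In 16 genes at least 2 probe sets were tested. Their changes had the same sign in 10 genes and opposite signs in 6, and differed by over 0.5 on the log2 scale in 3, namely Psmc4, Psmg2 and Psme4. For Psmc4 the brightest probe set gave 0.042, while the other one gave 0.69 ± 0.32 (adjusted p = 0.359), higher without overlap. For Psmg2 the brightest probe set gave -0.23, while the other one read 712 and 739 in the controls versus 295 and 449 with the Prox1 label (-0.91 ± 0.23, adjusted p = 0.165), the lowest value of any member's tested probe set. For Psme4 the brightest, whose identifier ends in a suffix for probes that can match several transcripts, gave 0.42, whereas the others gave -0.23 and 0.021. The probe sets of Psme4 thus give no common direction. For Psmc6 the dimmer tested probe set read 233 and 256 against 442 and 418 (0.71 ± 0.20, adjusted p = 0.185), in the direction of the brighter one. All 4 tested probe sets of Psmd11 were lower without overlap, from -0.63 to -0.20, and both of Psmb3 were, at -0.55 and -0.27. The brightest probe set of Psmd11 and the dimmer tested one of Psmc6 bear the same suffix as the brightest of Psme4.

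**Figure D4:**
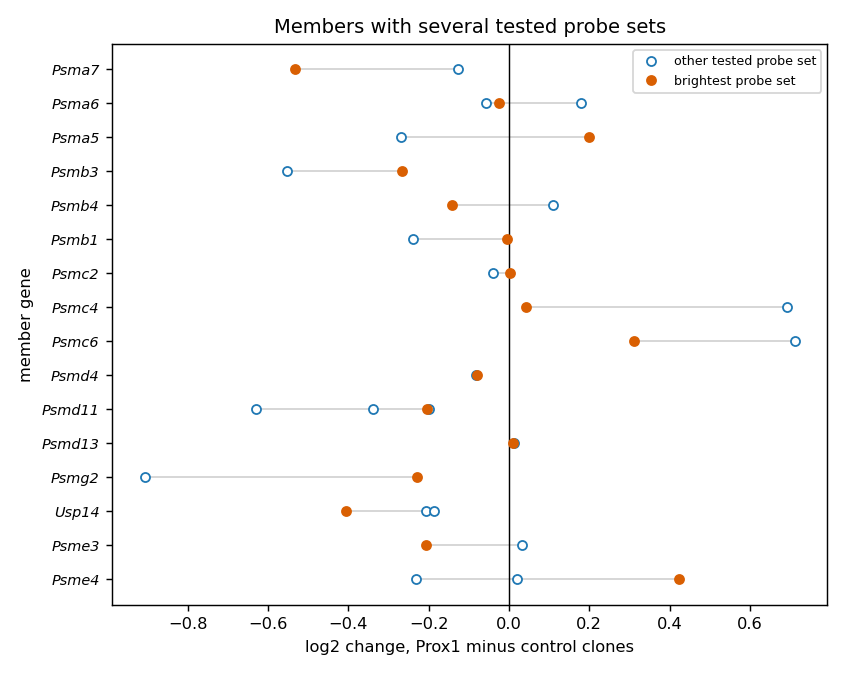
Log2 change, Prox1-labelled minus control clones (x axis), of every tested probe set of the 16 members with more than 1. Filled points are the brightest probe sets, which stand for the gene, and open points the others. The 4 points of Psmd11 and the 2 of Psmb3 lie left of 0, and those of Psme4 lie on both sides.

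Promoter sequences were read for the members to set their levels beside the motif by which the proteasome genes are known to be induced together. When proteasome activity drops, the transcription factor NRF1, encoded by Nfe2l1, binds with small Maf proteins to antioxidant response elements in these promoters. The core of that element was searched as TGACNNNGC on both strands in the 250 bases before each gene's start, in RefSeq promoters of build GRCm38.p6, which were given for 33 of the 41 members. It occurred in 6 of the 33 (18.2%), against 11.5% of all genes with a promoter. An ETS factor site, CCGGAAGT, also occurred in 6 (18.2%, against 3.23% of all genes), and CCAAT, which is bound by NF-Y, in 12 (36.4%, against 37.5%).

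The promoters that follow hold the element core, the ETS site or both, and were chosen after the values were seen. The log2 changes of these members had either sign, but none passed the threshold. The limma interval of each included no change, so a difference in direction was not established. Whether a motif bears on the levels was not tested. The element core is in capitals in the promoters of Psmb5 (chr14:54617996-54618245, minus strand), Psmb6 (chr11:70525107-70525356, plus strand), Psmd9 (chr5:123227940-123228189, plus strand) and Psmc6 (chr14:45329574-45329823, plus strand). That of Psmd12 (chr11:107479278-107479527, plus strand) has in capitals the element core, which comes first, and the ETS site, and that of Psmd6 (chr14:14120946-14121195, minus strand) the ETS site. Each runs 5′ to 3′ along the gene's strand and ends at the base before the start.
Psmb5: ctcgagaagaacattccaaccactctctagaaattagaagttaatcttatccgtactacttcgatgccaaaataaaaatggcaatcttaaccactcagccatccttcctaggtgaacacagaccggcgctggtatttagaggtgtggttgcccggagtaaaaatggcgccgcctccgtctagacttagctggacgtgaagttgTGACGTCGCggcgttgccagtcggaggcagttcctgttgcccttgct
Psmb6: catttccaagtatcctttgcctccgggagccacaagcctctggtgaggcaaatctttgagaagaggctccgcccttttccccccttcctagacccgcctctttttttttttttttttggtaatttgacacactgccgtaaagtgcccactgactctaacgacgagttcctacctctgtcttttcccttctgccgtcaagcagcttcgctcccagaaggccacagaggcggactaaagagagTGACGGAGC
Psmd9: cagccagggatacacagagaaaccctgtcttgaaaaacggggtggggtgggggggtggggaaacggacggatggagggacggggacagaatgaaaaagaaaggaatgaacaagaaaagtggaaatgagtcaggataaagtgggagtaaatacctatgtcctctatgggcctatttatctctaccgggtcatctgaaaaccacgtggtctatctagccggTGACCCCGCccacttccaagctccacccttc
Psmc6: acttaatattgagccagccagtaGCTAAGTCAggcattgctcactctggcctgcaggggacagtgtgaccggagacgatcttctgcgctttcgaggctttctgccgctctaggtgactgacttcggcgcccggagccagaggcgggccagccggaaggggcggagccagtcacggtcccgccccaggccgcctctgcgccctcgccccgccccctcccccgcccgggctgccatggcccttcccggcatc
Psmd12: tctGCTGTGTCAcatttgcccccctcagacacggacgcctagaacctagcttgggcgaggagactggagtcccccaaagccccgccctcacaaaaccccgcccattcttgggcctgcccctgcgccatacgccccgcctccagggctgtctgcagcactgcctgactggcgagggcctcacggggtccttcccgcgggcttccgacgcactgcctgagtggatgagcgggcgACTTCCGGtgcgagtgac
Psmd6: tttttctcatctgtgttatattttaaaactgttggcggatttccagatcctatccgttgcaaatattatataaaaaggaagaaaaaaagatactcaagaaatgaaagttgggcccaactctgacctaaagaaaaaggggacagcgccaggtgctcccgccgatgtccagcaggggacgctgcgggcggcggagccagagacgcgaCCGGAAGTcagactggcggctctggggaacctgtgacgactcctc
The element core lay 47 to 39 bases before the start in Psmb5, 31 to 23 in Psmd9 and 9 to 1 in Psmb6, and read on the opposite strand 227 to 219 bases before it in Psmc6 and 247 to 239 in Psmd12. Of the 6 members with it, 5 had a log2 change below 0, among them Uchl5 (-0.0088), whose promoter is not shown, and Psmc6 had 0.31. Those with an ETS site were split, 3 below 0 and 3 above, with Psmd12 at -0.35 and Psmd6 at 0.29. A match is a description of the letters and not evidence of binding.

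No gene passed the threshold in the neighbouring lists of the ubiquitin system. Among the regulators of proteasome genes, Nfe2l1 itself had overlapping groups (-0.091, adjusted p = 0.899). Mafg, which encodes a small Maf partner, read 890.4 and 719 in the controls versus 428 and 366 with the Prox1 label (-0.94 ± 0.20, adjusted p = 0.133), well apart. Nfya, a subunit of NF-Y, read 1472 and 1189 against 768 and 793 (-0.73 ± 0.19, adjusted p = 0.174). The mean over its probe sets was -0.30 for Nfya (adjusted p = 0.549). Mafg and Nfya were named for the smallest p of this list, as 2 genes were in each neighbouring list. On leaving out a clone the log2 change ranged from -1.08 to -0.79 for Mafg and from -0.88 to -0.58 for Nfya. It ranged from -0.86 to -0.59 for Nploc4, -0.67 to -0.35 for Ubxn1 and -0.89 to -0.66 for Gps1. For Ube2k it was -0.66 to -0.068 and for Ube2r2 0.35 to 0.70. Leaving out a clone cannot reverse groups that do not overlap. In all, 6 of 10 tested genes of this list of 13 were below 0, with a median of -0.085.

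Of the proteins that deliver substrates, 6 of 10 tested genes were below 0. Both Prox1-labelled values lay below both controls for 5 of the 10 and above for 3, Vcp, Rad23b (0.30) and Faf1 (0.48), where 23.2% of all genes did each. Nploc4, a cofactor of the segregase p97, read 1794 and 1474 in the controls versus 977 and 953 with the Prox1 label (-0.73 ± 0.19, adjusted p = 0.172). Ubxn1, another p97 cofactor, read 3771 and 3022 against 2229.9 and 2487 (-0.51 ± 0.19, adjusted p = 0.272). Vcp, which encodes p97, went the other way, from 5493 and 5736 to 6797 and 7121 (0.31, adjusted p = 0.419). Among the further proteasome-associated factors 3 of 6 were below 0. The inhibitor gene Psmf1 read 1361 and 1337 against 958 and 987 (-0.45 ± 0.18, adjusted p = 0.295), and Ecpas, which tethers the regulatory to the core particle, read 207 and 190.3 against 320.1 and 379 (0.69 ± 0.21, adjusted p = 0.207). The mean over probe sets was -0.15 for Psmf1. The 6 tested genes of ubiquitin conjugation were evenly split, with Ube2r2 at 0.52 (adjusted p = 0.293) and Ube2k at -0.36 (adjusted p = 0.478). Ube2k stood at -0.068 without control clone 1, at -0.66 without control clone 2 and at -0.066 as the mean over its probe sets.

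Complexes of similar size or design gave medians on either side of that of the proteasome. The COP9 signalosome and the translation initiation factor eIF3 share the domain plan of the lid. The median log2 change was -0.13 over 9 COP9 genes and 0.035 over 11 eIF3 genes, and it was -0.13 over the 8 genes of TRiC, the chaperonin that folds actin and tubulin. Gps1, a COP9 subunit, read 2972 and 2512.5 in the controls versus 1574 and 1583 with the Prox1 label (-0.77 ± 0.18, adjusted p = 0.154), and Cops7b gave -0.43 (adjusted p = 0.348). Of eIF3, Eif3c stood at -0.38 (adjusted p = 0.365) and Eif3f at 0.41 (adjusted p = 0.312), and of TRiC, Cct5 at -0.31 (adjusted p = 0.430) and Cct3 at -0.22 (adjusted p = 0.585). The mean over probe sets was -0.14 for Cops7b and -0.16 for Eif3c. Differences between these lists and the proteasome genes were not tested.

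**Figure D5:**
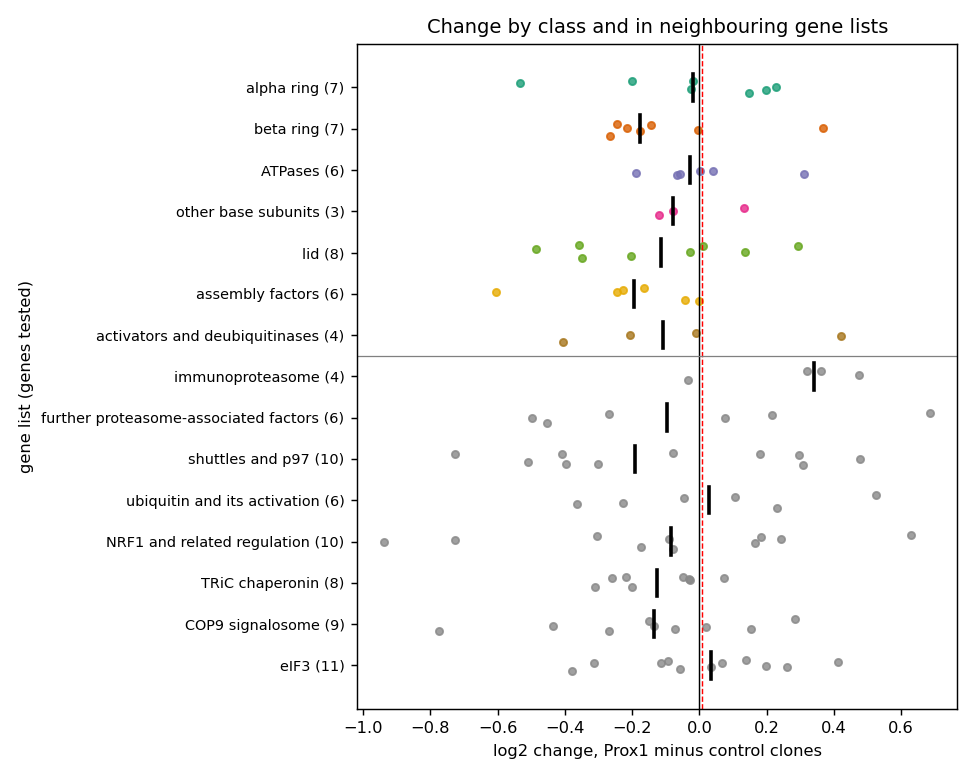
Log2 change, Prox1-labelled minus control clones (x axis), of each tested gene in the 7 classes of proteasome genes (coloured, above the line) and 8 neighbouring lists (grey), with the number of genes tested. Black bars are medians and the dashed red line is the median of all genes tested (0.0072); class medians lie between -0.20 and -0.020.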

How the data were processed

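Total RNA of 4 Py-4-1 clones, extracted with TRIzol, was labelled with biotin and hybridised to 1 array each, per the labels' protocols. The authors deposited 1 linear intensity per probe set, computed with MAS5, per the submitters' processing notes (version not given in the sources used here). Each array's mean after trimming 2% at either end was 500, so the arrays had been scaled alike, and the number of arrays limits the precision.

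Of 22690 probe sets, 64 Affymetrix controls were left out. Of the remainder the platform annotation gives 20380 a single gene (1 symbol), 691 more than 1 and 1555 no symbol, and all 41 member symbols matched RefSeq by Entrez identifier. Values were analysed as log2(intensity + 47). Probe sets above their array's median in at least 2 arrays (11656) were tested with limma 3.58.1 in R 4.3.3 (lmFit, then eBayes with trend). Tests were 2-sided, p-values were adjusted by Benjamini-Hochberg across these probe sets, and the threshold was 0.05. Errors of log2 changes are standard errors.

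On simulated data for this comparison over 11656 probe sets, 41% of the 2-fold changes were recovered, as were 99% of those of 4-fold, and 13 of 153 calls were false.

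The members, classes and lists were chosen with earlier results of these data known. Members past the threshold, the lowest and highest of each class, Psmb5, Psmb6 and Psmb7 and their immunoproteasome counterparts, and the 2 genes of smallest p in each neighbouring list were named by rule. Other genes and the promoters shown were chosen after their values were seen. Alternatives covered the scaling, the pseudocount, the filter, the variance trend, the clone number as a block, the mean over a gene's probe sets, and leaving out each clone. Of the listed neighbours, those without a probe set of their own are not analysed here.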

Additional observations from a re-analysis of the deposited data

How the results depend on the processing

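The alternatives of the filter, the variance trend and the replicate block leave each log2 change as it was, so a sign could not change there. Leaving out a clone could not change it either for the 13 lower and 7 higher members without overlap. All of these are in the count that follows, which was therefore largely fixed in advance. Of 41 members, 23 kept the sign of their change in all 13 alternatives that gave them a value, 16 lower and 7 higher (share of all genes not computed). No member passed the threshold in 12 of them, and 1 (Psmd5) did without control clone 2, so that the count ranged from 0 to 1 on leaving out a clone. Median centring left 4 members higher without overlap, against 20.0% of genes. Leaving out a clone gave 15 to 25 members lower and 7 to 15 higher without overlap. There 3 clones overlap less often by construction (32.9% to 41.9% of genes lower and 32.3% to 44.2% higher). The median over the members ranged from -0.15 to 0.036, and that of the alpha ring from -0.26 to 0.20, of the ATPases from -0.18 to 0.21, of the lid from -0.31 to 0.0047 and of the assembly factors from -0.29 to -0.010. With the mean over a gene's probe sets the lid stood at -0.027, without Psmd7, which fell below the filter there, and Psmc1 at 0.053. On leaving out a clone Psma1 ranged from -0.27 to 0.73, Psmc1 from -0.41 to 0.027, Psmb8 from -0.36 to 1.08, Psmb9 from -0.18 to 1.13 and Psmb10 from -0.39 to 0.33. The cause was not tested. These fits leave 1 array in a group, which is assumed to vary like the other. With the clone number as a replicate block 0 members passed (smallest adjusted p = 0.221), while calls over all probe sets went from 12 to 110. Across all probe sets tested, deviations from the group means did not correlate between same-numbered clones (-0.00909). With 2 clones a group this is 1 correlation, and it cannot exclude a pairing that touches few genes. Whether the numbers pair the clones was therefore not settled.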
